A study of Homo sapiens with 9 samples.

Results

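Zinc is moved across membranes by 2 families of carriers and held in the cytosol by metallothioneins, and 37 of the 28216 genes in the deposited count table belong to this system. They were taken by symbol alone: 10 SLC30A (ZnT) genes, 14 SLC39A (ZIP) genes, 12 metallothionein genes (9 of the MT1 series, MT2A, MT3 and MT4) and MTF1. Gene expression was measured by sequencing of mRNA in 9 libraries of human prostate cancer cell lines, with 3 libraries in each of 3 groups. PC3 cells, an androgen-insensitive line, were untreated and grown in F12K medium with 10% fetal bovine serum. LNCaP cells (clone FCG), an androgen-responsive line, were first held for 24 h in RPMI without phenol red, with 10% charcoal-stripped serum, and then received for 48 h either 10 nM androgen or the vehicle, 0.01% ethanol. The sample labels call the androgen dihydrotestosterone, whereas the study's text names a synthetic androgen. All groups were wild type. The 2 lines also differed in medium and serum, so that line and culture conditions cannot be told apart. Each line represents a single tumour. Nothing in the labels says that the 3 libraries of a group came from separate cultures, and p-values measure only the spread between these libraries.

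ZIP proteins bring zinc into the cytosol from outside the cell or from organelles, and ZnT proteins take it out, across the plasma membrane or into vesicles, the Golgi apparatus or mitochondria. Metallothioneins are small cysteine-rich proteins that bind zinc and copper, and MTF1 is the zinc-sensing transcription factor that binds metal response elements in metallothionein promoters and in that of SLC30A1. Normal prostate epithelium is known for accumulating zinc and secreting citrate, and prostate cancers are known for losing this zinc.

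The libraries held 17397706 to 25640325 counts on genes. A count of 0 allowed up to 3 counts, which was 0.118 to 0.16 CPM (counts scaled for library size) depending on the library. Such limits, and the counting intervals given with pooled ratios, cover counting error only. Of 7 LNCaP markers, 6 were called lower in PC3 than in either LNCaP group. Among them KLK2, a prostate kallikrein, had 0 counts in all PC3 libraries and 621 to 15238 in LNCaP libraries. HOXB13 was the exception (log2 fold changes 0.49 and 0.14 in PC3 against androgen and vehicle). All 5 markers of PC3 were called higher in PC3 than in either LNCaP group. Several markers, such as KLK2, CD44 and AXL, passed the filter on low counts through a single line alone, so their calls are descriptions. The same held for CAV1 against vehicle. PC3 replicate 3 stood apart from its group, with a chi-square per gene of 31.5 and 54.4 against the other two PC3 libraries, compared with 11.6 between those and 2.26 to 5.53 between libraries of an LNCaP group. Without it, the zinc genes called in PC3 were as given below, except that MTF1 was not called and MT1F was not tested against the androgen group. The values without this library are given beside the main ones for most of these genes. Leaving it out also cut the genes tested, from 12541 to 11313 against androgen and from 12686 to 11584 against vehicle. The filter still asked for 3 libraries and the library scaling was fitted anew. Such values thus do not show the part of replicate 3 alone. Of the fibroblast markers, COL1A1 was read in every library (12.3 to 42 CPM) and was called higher in PC3 than with androgen (log2 fold change 1.51, and 0.80 against vehicle, under 2-fold). COL3A1 had 118, 150 and 90 counts in PC3, 4, 1 and 3 with androgen and 16, 20 and 18 with vehicle, and was called higher in PC3 in both comparisons (5.20 and 2.39), where it passed the filter on low counts through the PC3 libraries alone. DCN had at most 2 counts and COL1A2 at most 6. The part of the fibroblast markers in the zinc gene differences was not tested. The leukocyte markers PTPRC, CD3E and LYZ had at most 7 counts in any library. In RNA from whole cultures, fewer cells of a kind and less RNA per cell cannot be told apart.

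The 3 families were balanced differently in the 3 groups. Summed over the 12 metallothionein genes, expression was 254.4 CPM ± 34.84 (SD, n = 3) in PC3, 119.7 ± 5.81 in vehicle-treated LNCaP and 47.62 ± 4.622 in androgen-treated LNCaP cells, with no overlap between the groups. The SLC30A sum was 328.6 CPM ± 5.67 in PC3, 930.1 ± 21.66 with vehicle and 887.9 ± 33.78 with androgen. For the SLC39A genes the sum was 1164 CPM ± 59.43 in PC3, 1122 ± 17.35 with vehicle and 1622 ± 49.72 with androgen, and here PC3 and the vehicle group overlapped. A single gene carried much of 2 of these sums. MT2A made up 87.3% to 89.3% of the metallothionein sum in PC3, 60.4% to 62.3% with vehicle and 44.8% to 52.8% with androgen, and SLC30A4 made up 1.61% to 2.3% of the SLC30A sum in PC3 but 48.9% to 51.4% with vehicle and 38.5% to 40.1% with androgen.

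**Figure D1:**
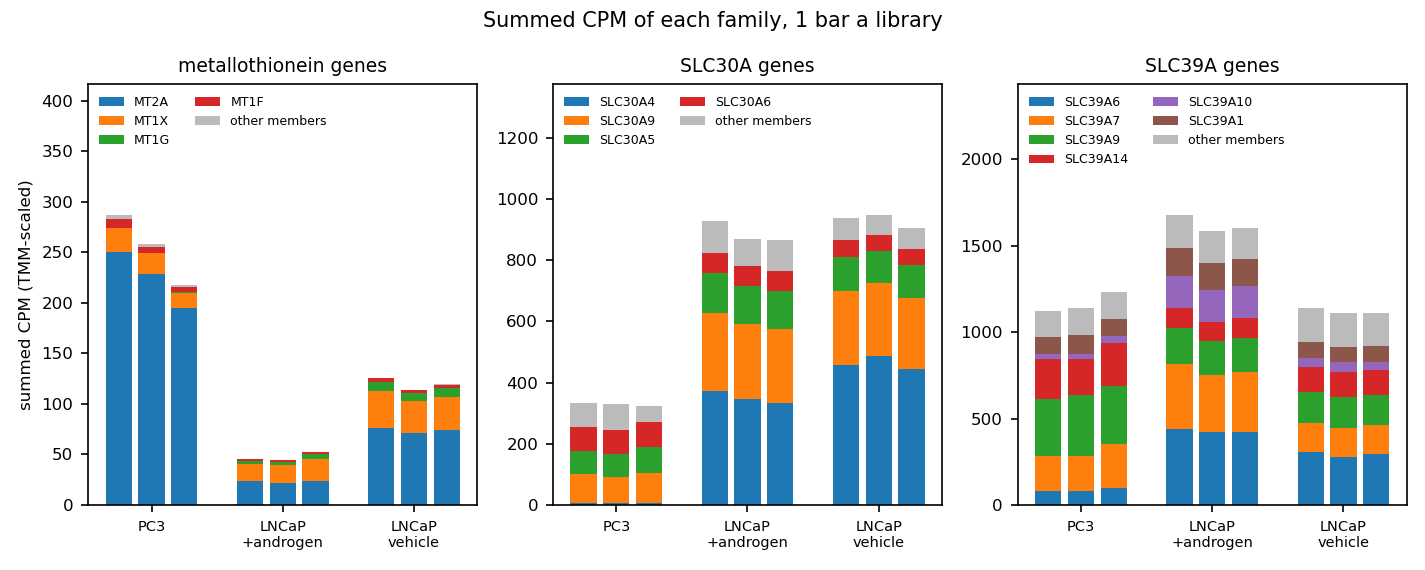
Summed CPM of the metallothionein, SLC30A and SLC39A genes, 1 bar for each of the 9 libraries, with the members of highest level in colour and the rest in grey. The metallothionein bars reach 217.7 to 287 CPM in PC3 and 44.67 to 52.95 in androgen-treated LNCaP cells; the SLC30A4 segment is nearly absent in PC3.

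Androgen treatment of LNCaP cells was compared with vehicle to see which genes of the system respond to the hormone. A gene was called where the edgeR quasi-likelihood test gave an adjusted p-value under 0.05 and the fold change was at least 2. Of 21 members with enough reads to be tested, 2 were called higher with androgen, SLC39A10 and SLC39A7 (6.54% of all tested genes were called higher), and 3 were called lower, MT2A, SLC39A8 and MT1G (7.49% of all genes). By adjusted p-value alone 20 of the 21 passed, but so did 74.9% of all genes, and 3 of the 20 (SLC30A1, SLC39A9 and SLC39A13) no longer passed when some single libraries were left out. The median log2 fold change of the members was 0.25, against -0.01 over all genes.

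PC3 was compared with each LNCaP group, and these comparisons share libraries with each other and with the first, so their results are not independent. Against androgen-treated LNCaP cells, 4 of 21 members were called higher in PC3, MT2A, MT1F, SLC39A13 and SLC39A14 (24% of all genes), and 5 were called lower, SLC30A4, SLC39A10, SLC39A6, SLC30A9 and MTF1 (22.1% of all genes). By adjusted p-value alone 18 passed, against 84% of all genes, and the members' median log2 fold change was -0.62 against 0.04 over all genes. Against vehicle-treated cells, 3 of 22 members were called higher in PC3, MT2A, MT1F and SLC39A13 (22.2% of all genes). Another 5 were called lower, MT1G, SLC30A4, SLC39A6, SLC39A8 and SLC30A9 (21% of all genes), and 4 without any 1 of the vehicle libraries, when MT1G no longer passed the filter. Here 19 passed by adjusted p-value alone, against 83.4% of all genes, with a median of -0.30 against 0.03. The shares of members called were thus near or below those of all genes in both PC3 comparisons.

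**Figure D2:**
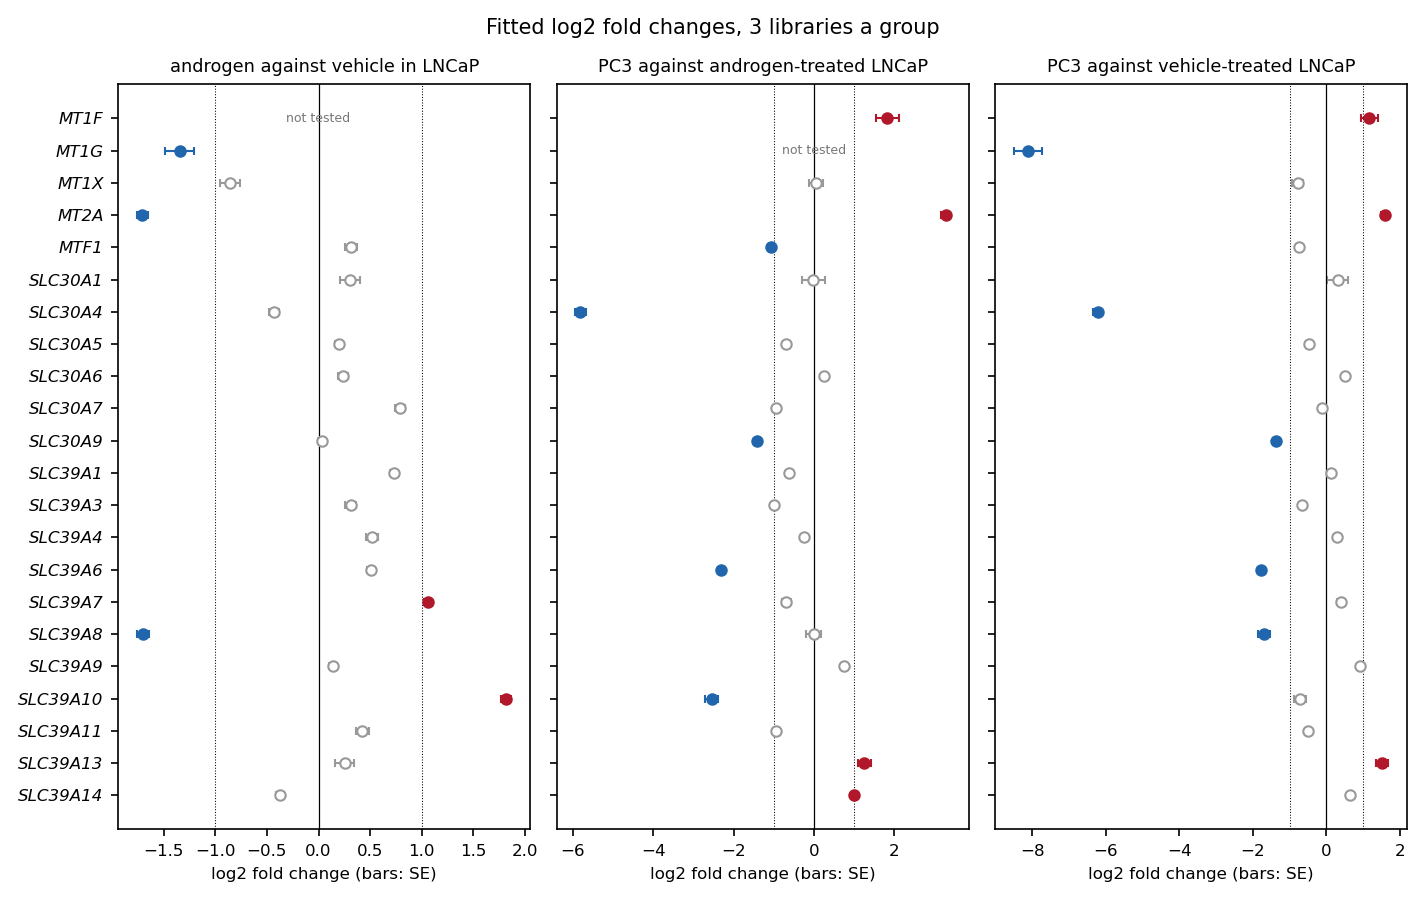
Fitted log2 fold changes of the tested members with their standard errors, in androgen against vehicle and in PC3 against each LNCaP group (3 libraries a group). Filled red and blue points were called higher and lower, open grey points were not called, and dotted lines mark 2-fold; SLC30A4 lies at -5.81 and -6.22, and the fitted value of MT1G in PC3 rests on 2 counts. The horizontal scales of the 3 panels differ.

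The 12 metallothionein genes lie side by side on chromosome 16 of GRCh38, from MT4 at 56565073 to MT1X at 56684196. MT1G (56666730 to 56668065) is on the minus strand and the others, such as MT2A (56608584 to 56609497), are on the plus strand. MT1G, also lower with androgen, had no promoter entry used here, and MT1B and MT4, which had no reads, are not shown. The genes shown are MT2A and MT1X, which moved in the same direction with androgen, and MT1H, which had no read in any library. The 250 bases before the transcription start of these genes and of SLC30A1, the other well-known MTF1 target, are shown 5′ to 3′ on the strand of the gene. They are from RefSeq on GRCh38.p14, at chr16:56608334-56608583 (MT2A, plus), chr16:56682220-56682469 (MT1X, plus), chr16:56669564-56669813 (MT1H, plus) and chr1:211579162-211579411 (SLC30A1, minus). Capitals mark the core of the metal response element, TGCACNC or TGCGCNC on either strand, with overlapping matches joined.
MT2A: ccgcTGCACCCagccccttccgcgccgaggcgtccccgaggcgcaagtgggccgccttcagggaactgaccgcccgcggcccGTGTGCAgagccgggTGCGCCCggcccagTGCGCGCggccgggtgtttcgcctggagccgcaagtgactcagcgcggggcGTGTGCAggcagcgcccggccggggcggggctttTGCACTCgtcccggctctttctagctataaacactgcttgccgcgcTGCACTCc
MT1X: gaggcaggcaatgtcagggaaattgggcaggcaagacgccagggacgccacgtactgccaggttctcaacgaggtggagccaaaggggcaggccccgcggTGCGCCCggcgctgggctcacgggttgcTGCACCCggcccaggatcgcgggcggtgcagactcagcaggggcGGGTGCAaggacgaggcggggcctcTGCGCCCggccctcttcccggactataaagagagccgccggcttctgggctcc
MT1H: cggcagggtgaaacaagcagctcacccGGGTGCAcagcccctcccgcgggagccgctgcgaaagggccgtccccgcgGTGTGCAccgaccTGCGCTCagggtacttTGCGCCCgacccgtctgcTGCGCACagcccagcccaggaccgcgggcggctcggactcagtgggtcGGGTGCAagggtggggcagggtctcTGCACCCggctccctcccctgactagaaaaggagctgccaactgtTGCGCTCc
SLC30A1: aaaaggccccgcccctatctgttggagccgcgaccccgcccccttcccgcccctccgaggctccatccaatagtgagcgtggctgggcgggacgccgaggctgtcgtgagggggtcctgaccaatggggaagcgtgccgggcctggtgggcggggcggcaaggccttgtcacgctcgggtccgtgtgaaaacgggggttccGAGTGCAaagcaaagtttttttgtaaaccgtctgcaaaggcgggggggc

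The core occurred 7 times before MT2A, 4 times before MT1X, 8 times before MT1H and once before SLC30A1. Among 35116 RefSeq promoters of the same length, 24.8% held at least 1 match, 0.202% at least 4 and 0.0342% at least 6. Over the zinc genes, 16 of 36 promoters (44.4%, from 27 genes) held a match. None was found in this window before SLC39A10 or SLC39A7, MTF1 or SLC30A10, and 1 was found before SLC30A4. The letters describe the sequence and do not show binding, and the number of matches did not follow the level: MT1H, with the most, had no reads, whereas MT2A was the most abundant metallothionein in every group.

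MT2A, the main metallothionein of most tissues, was read 6284, 5096 and 4942 times in the PC3 libraries, 1452, 1334 and 1492 times with vehicle and 517, 439 and 478 times with androgen. The groups did not overlap: PC3 was highest and androgen-treated LNCaP lowest. MT2A was 3.26-fold lower with androgen than with vehicle (log2 fold change -1.71, SE 0.053, adjusted p = 1.24e-11). In PC3 it was 9.66-fold above androgen-treated cells (3.27, SE 0.108, adjusted p = 7.99e-08) and 3-fold above vehicle-treated cells (1.59, SE 0.0955, adjusted p = 1.76e-06), and without PC3 replicate 3, its lowest library, by 3.48 and 1.76 on the log2 scale. Per kilobase of exon its mean level was 245.8 CPM in PC3, 80.66 with vehicle and 25.22 with androgen, and MT1X, the next in all 3 groups, stood at 11.48, 19.44 and 10.97.

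MT1X did not follow MT2A between the lines. Its counts were 589, 449 and 401 in PC3, 702, 591 and 654 with vehicle and 363, 363 and 448 with androgen. It fell 1.81-fold with androgen (log2 fold change -0.86, SE 0.0992, adjusted p = 4.26e-06), less than the 2-fold needed for a call. PC3 libraries lay below the vehicle group (-0.78, SE 0.145, adjusted p = 0.00128) and overlapped the androgen group (0.05, SE 0.172, adjusted p = 0.782). Without PC3 replicate 3 these differences were -0.56 (adjusted p = 0.000342) and 0.30 (adjusted p = 0.0633).

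MT1G and MT1M divided the lines in opposite directions. MT1G had 0, 0 and 2 counts in PC3, 178, 155 and 193 with vehicle and 68, 69 and 89 with androgen. It was 2.54-fold lower with androgen than with vehicle (log2 fold change -1.34, SE 0.14, adjusted p = 1.58e-06). With counts pooled over a group, MT1G was 330-fold higher in vehicle-treated LNCaP than in PC3 (95% interval 90.8 to 2730), both of its PC3 reads being in replicate 3. Without that library PC3 had 0 counts, and MT1G was at least 143-fold higher with vehicle, against a floor of 3 counts over the group. MT1G passed the filter against PC3 through the vehicle libraries alone, and without any 1 of them it was not tested. MT1M had 97, 64 and 54 counts in PC3 and in each LNCaP group 1, 0 and 0. It did not pass the filter on low counts, and the pooled ratio of PC3 to the vehicle group was 172 (30.5 to 6810). Short stretches of 74 bases, the read length, were shared with other places in the genome for 6.07% of MT1G and 1.6% of MT1M, and reads from these stretches cannot be placed with certainty.

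MT1F had 227, 142 and 133 counts in PC3, 65, 51 and 59 with vehicle and 30, 38 and 51 with androgen, with no overlap between PC3 and LNCaP libraries. It was 3.55-fold higher in PC3 than with androgen and 2.25-fold higher than with vehicle. MT1F passed the filter of more than 3 CPM in 3 libraries through the 3 PC3 libraries alone against androgen. Against vehicle it passed through these and some vehicle libraries, and its calls are descriptions. Scaled by TMM factors, which the filter did not use, its level was 5.24 to 9.05 CPM in PC3. With androgen it was 1.39 to 2.53 CPM and with vehicle 2.72 to 3.40. With only 2 PC3 libraries MT1F no longer passed the filter against the androgen group and could not be tested there. Between the LNCaP groups it was too low to be tested, and the pooled counts gave 1.58-fold (1.24 to 2.01) more with vehicle than with androgen. MT3, a metallothionein best known from brain, had 5, 9 and 6 counts with vehicle and 0 in the other 6 libraries, at least 7.14-fold higher than with androgen against a floor of 3 counts over the group. Of the others, MT1E had 2 counts in 1 androgen library, and MT1A, MT1B, MT1H, MT1L (a pseudogene) and MT4 had 0 counts in all 9 libraries. Depth does not separate silence from a level under the limit of 0.118 to 0.16 CPM.

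**Figure D3:**
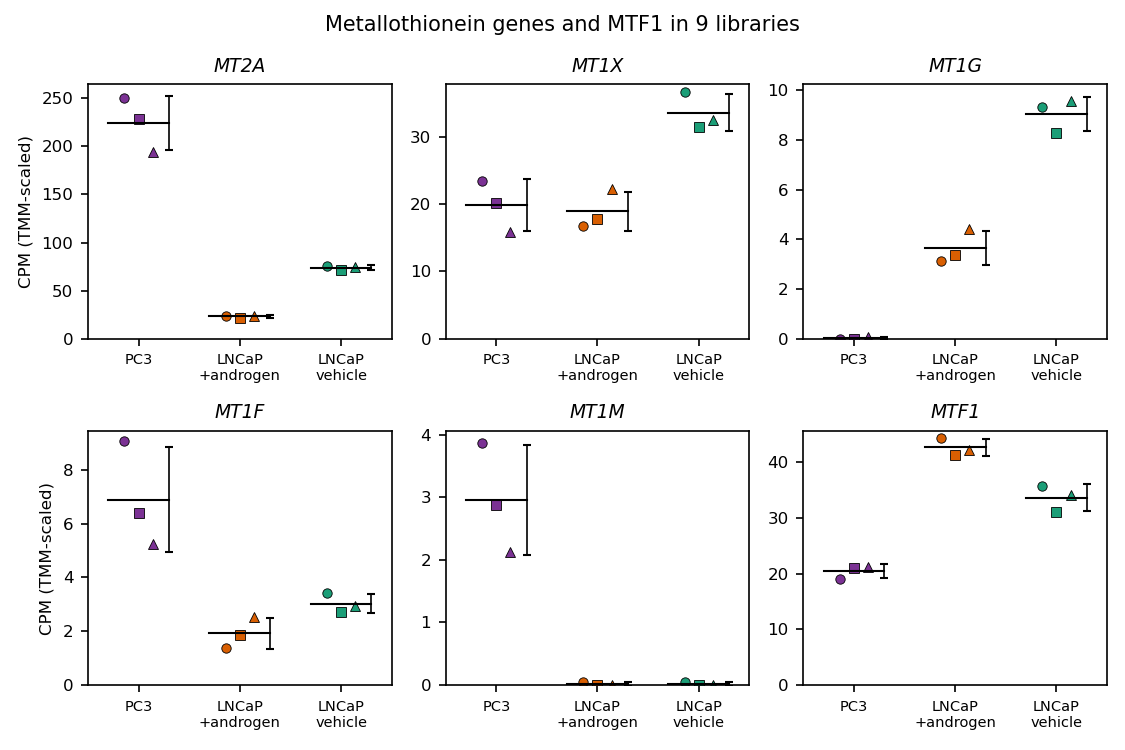
CPM of MT2A, MT1X, MT1G, MT1F, MT1M and MTF1 in each library (circle, square and triangle for replicates 1, 2 and 3), with the group mean as a line and the SD as a bar (n = 3). MT2A, MT1X, MT1G and MT1F are lower with androgen than with vehicle in every library, and MTF1 is higher; each panel has its own vertical scale from 0.

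MTF1 moved against the metallothioneins within LNCaP. Its counts were 959, 843 and 850 with androgen, 684, 583 and 686 with vehicle and 475, 469 and 538 in PC3. MTF1 was 1.24-fold higher with androgen than with vehicle (log2 fold change 0.31, SE 0.0571, adjusted p = 0.000257). In PC3 it was 2.11-fold below the androgen group (-1.08, SE 0.0795, adjusted p = 4.92e-06) and 1.67-fold below the vehicle group (adjusted p = 9.21e-05). The call against the androgen group lay at the 2-fold line and was lost without any 1 of the 3 PC3 libraries (-0.90, -0.97 and -0.995, past the adjusted p-value in each). Leaving out a PC3 library also cut the genes tested from 12541 to between 11313 and 11318, and the library scaling was fitted anew. The loss therefore does not show the part of a single library.

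Among the SLC39A genes, the largest rise with androgen was in SLC39A10, a zinc importer of the plasma membrane that pairs with SLC39A6. SLC39A10 had 3952, 3788 and 3790 counts with androgen, 969, 1039 and 983 with vehicle and 647, 654 and 1034 in PC3. Androgen-treated cells stood well above both other groups: 3.52-fold above vehicle (log2 fold change 1.82, SE 0.0521, adjusted p = 5.91e-12) and 5.85-fold above PC3 (adjusted p = 1.91e-06). PC3 was 1.64-fold below vehicle (adjusted p = 0.0041). Replicate 3 was the highest of its group, and without it PC3 lay below androgen and vehicle by log2 fold changes of -2.65 and -0.85 (adjusted p = 1.36e-09 and 5.59e-06).

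SLC39A7, which releases zinc from the endoplasmic reticulum and Golgi apparatus, had 8062, 6778 and 7010 counts with androgen, 3181, 3098 and 3300 with vehicle and 4990, 4514 and 6550 in PC3. It was 2.08-fold higher with androgen than with vehicle (log2 fold change 1.06, SE 0.0405, adjusted p = 8.74e-11). PC3 lay between the LNCaP groups, 1.61-fold below androgen and 1.31-fold above vehicle, with adjusted p-values of 0.000549 and 0.00879. Without PC3 replicate 3, the highest, the log2 fold changes of SLC39A7 were -0.71 and 0.34 (adjusted p = 2e-06 and 5.78e-05). RXRB, on the opposite strand, overlaps 9.02% of the exons of SLC39A7, and the counts are of the gene's own strand.

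SLC39A8, an importer of zinc, manganese and cadmium at the plasma membrane, went the other way. It had 1381, 1363 and 1442 counts with vehicle, 457, 477 and 475 with androgen and 555, 644 and 439 in PC3. The fall with androgen was 3.25-fold (log2 fold change -1.70, SE 0.0582, adjusted p = 3.02e-11), and PC3 was 3.22-fold below vehicle (adjusted p = 2.83e-05). PC3 and androgen-treated cells overlapped at 22.8 and 22.7 CPM on average (log2 fold change -0.01, SE 0.176, adjusted p = 0.961). Without PC3 replicate 3 this difference was 0.26 (adjusted p = 0.063), and that from vehicle -1.45.

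SLC39A6, an importer known as estrogen-responsive in breast cancer cells, was the SLC39A gene of highest level per kilobase in LNCaP, with a mean of 116.4 CPM per kb with androgen and 80.02 with vehicle, against 23.74 in PC3. Its counts were 9558, 8611 and 8505 with androgen, 5887, 5232 and 5984 with vehicle and 2080, 1854 and 2439 in PC3. It was 4.94-fold lower in PC3 than with androgen and 3.42-fold lower than with vehicle (adjusted p = 1.02e-07 and 3.96e-07), with log2 fold changes of -2.27 and -1.77 without PC3 replicate 3. The 1.43-fold rise with androgen passed the adjusted p-value (5.75e-08) but not the 2-fold limit. SLC39A1, the major plasma membrane importer described in prostate cells, rose 1.66-fold with androgen (adjusted p = 1.77e-09), from 91 to 93.2 CPM with vehicle to 153 to 163 CPM. The difference between PC3 (98.1 to 110 CPM) and vehicle did not pass the test (log2 fold change 0.13, SE 0.0613, adjusted p = 0.0892), but passed without PC3 replicate 3 (0.23, adjusted p = 0.00208). Replicates 1 and 3 were close (99.4 and 98.1 CPM), and that fit also held fewer genes (11584 against 12686). The change does not show the part of replicate 3 alone.

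SLC39A13, a Golgi and vesicle transporter, was higher in PC3. It had 811, 738 and 1191 counts there, 337, 345 and 288 with androgen and 252, 251 and 241 with vehicle. PC3 was 2.38-fold above the androgen group and 2.88-fold above the vehicle group (adjusted p = 0.000144 and 4.55e-05). Replicate 3 was the highest PC3 library, and without it the call was kept in both comparisons (log2 fold changes 1.17 and 1.41). SLC39A14, a plasma membrane importer of zinc, iron and manganese, had 211 to 250 CPM in PC3, 111 to 118 with androgen and 144 to 146 with vehicle. It was 2.01-fold higher in PC3 than with androgen (log2 fold change 1.01, SE 0.0773, adjusted p = 6.16e-06), a call lost without any 1 of the 3 androgen libraries (0.90 to 0.94). The genes tested then also fell, from 12541 to 11696 or 11697, so the loss does not show the part of a single library. With androgen SLC39A14 was 1.30-fold lower than with vehicle (adjusted p = 8.61e-07).

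The other SLC39A genes were called in no comparison. SLC39A9, a Golgi transporter, was 1.68-fold and 1.87-fold higher in PC3 than with androgen and vehicle (334 to 348 CPM in PC3, 176 to 210 in LNCaP). SLC39A3 was 2.00-fold lower in PC3 than with androgen but fell just short of the limit (log2 fold change -0.9985), and under DESeq2 size factors it was called (-1.0039). Without PC3 replicate 3 it was -0.85. SLC39A4, the intestinal importer, and SLC39A11 rose 1.43-fold and 1.34-fold with androgen (adjusted p = 4.02e-06 and 4.7e-05). SLC39A2, SLC39A5 and SLC39A12 had at most 3 counts in any library.

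**Figure D4:**
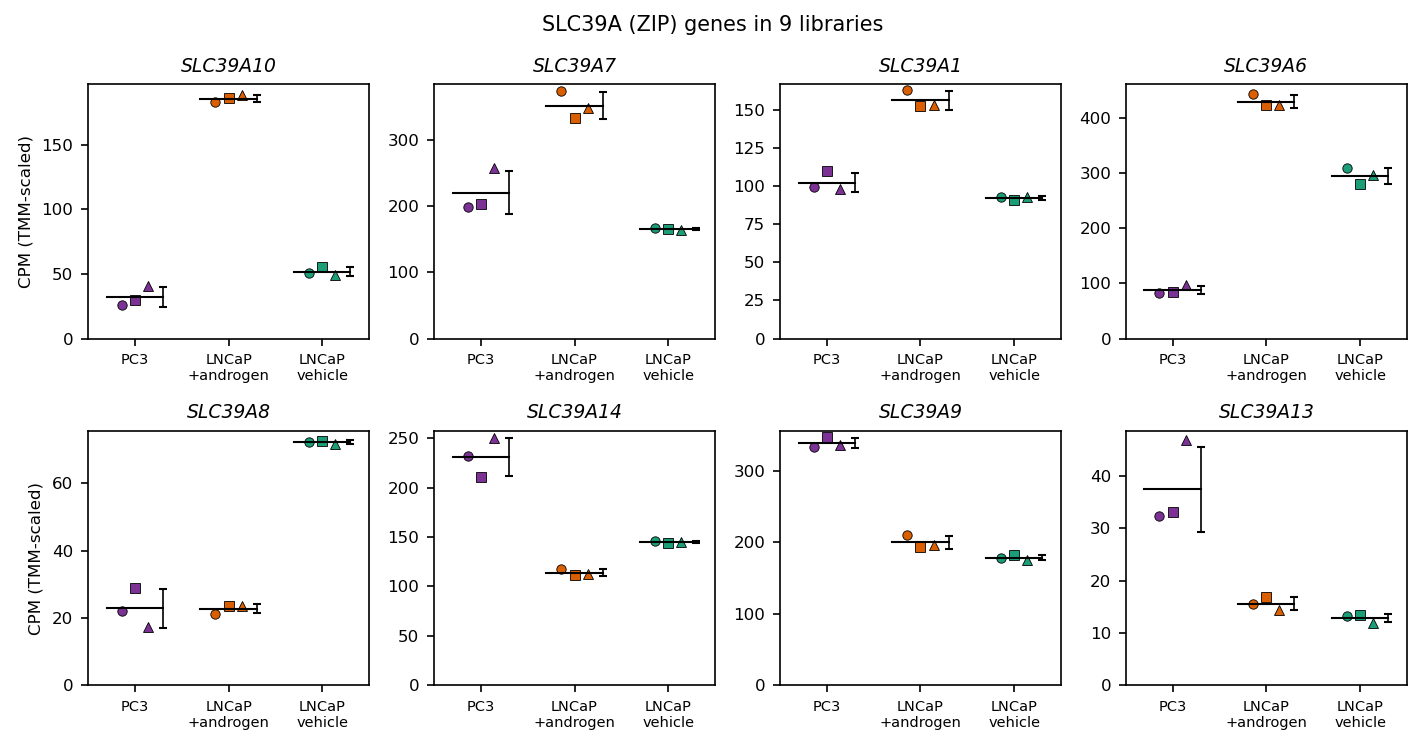
CPM of 8 SLC39A genes in each library (circle, square and triangle for replicates 1, 2 and 3), with the group mean as a line and the SD as a bar (n = 3). SLC39A10, SLC39A7, SLC39A1 and SLC39A6 are highest with androgen, SLC39A8 is highest with vehicle, and SLC39A14, SLC39A9 and SLC39A13 are highest in PC3; each panel has its own vertical scale from 0.

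Of the SLC30A genes, SLC30A4 set the lines apart. It encodes a transporter of endosomal and secretory vesicles and lies on chromosome 15 from 45479606 to 45522755, on the minus strand. It had 8749, 9126 and 8946 counts with vehicle, 8043, 7038 and 6725 with androgen and 134, 137 and 188 in PC3. PC3 was 74.5-fold below vehicle (log2 fold change -6.22, SE 0.13, adjusted p = 1.56e-08) and 56-fold below androgen (-5.81, SE 0.126, adjusted p = 1.72e-08). SLC30A4 was the SLC30A gene of highest level per kilobase in both LNCaP groups (57.66 CPM per kb with vehicle, 43.65 with androgen) and the sixth in PC3 (0.785). Androgen lowered it 1.35-fold (adjusted p = 1.72e-06), without overlap between the groups.

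SLC30A9, a mitochondrial zinc transporter, was 2.69-fold lower in PC3 than with androgen and 2.60-fold lower than with vehicle (adjusted p = 5.02e-07 and 6.33e-07). It had 85.7 to 97.1 CPM in PC3 and 232 to 254 in LNCaP, and was the only tested member whose androgen difference did not pass (log2 fold change 0.03, SE 0.0351, adjusted p = 0.429). The transporters of the early secretory pathway, SLC30A5, SLC30A6 and SLC30A7, rose 1.15-fold, 1.18-fold and 1.73-fold with androgen, with adjusted p-values of 0.000327, 0.000351 and 1.28e-08. SLC30A7 had 52.7 to 56.1 CPM with androgen and 29.8 to 31.4 with vehicle. PC3 was 1.91-fold below androgen in SLC30A7 (27.7 to 28.9 CPM) and its difference from vehicle did not pass the test (log2 fold change -0.13, adjusted p = 0.124).

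SLC30A1, the plasma membrane exporter that zinc induces through MTF1, had 1258, 1291 and 606 counts in PC3, 1019, 749 and 970 with androgen and 741, 573 and 718 with vehicle. All 3 groups overlapped. It was 1.23-fold higher with androgen than with vehicle (log2 fold change 0.30, SE 0.0975, adjusted p = 0.0134), and did not pass without androgen replicate 3 (adjusted p = 0.0618) or vehicle replicate 2 (adjusted p = 0.0801), nor in a joint fit of all 9 libraries (adjusted p = 0.343). PC3 against androgen gave -0.01 (SE 0.293, adjusted p = 0.965), but PC3 replicate 3 decided this value: without it PC3 was higher by 0.39 (adjusted p = 0.00901). Against vehicle the difference was 0.31 (adjusted p = 0.35), and 0.68 (adjusted p = 6.95e-05) without replicate 3.

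The remaining SLC30A genes were too low for the main test. SLC30A10, best known as a manganese exporter, had 19, 18 and 27 counts with vehicle, 2, 1 and 1 with androgen and 0 in PC3. The pooled counts were 17.1-fold higher with vehicle than with androgen (6.38 to 64.8), and at least 26.7-fold higher than in PC3. SLC30A3, which loads synaptic vesicles, had 20, 24 and 25 counts with vehicle, 0, 3 and 1 with androgen and 0, 0 and 1 in PC3, a pooled ratio of 18.5 (6.9 to 69.8) between the LNCaP groups. SLC30A2, a vesicular transporter known from mammary gland, went the other way, with 14, 11 and 5 counts with androgen, 1, 0 and 1 with vehicle and 0, 0 and 1 in PC3. Its pooled ratio of androgen to vehicle was 14 (3.55 to 121). These 3 genes were called in the same directions between the LNCaP groups when no filter on low counts was applied, with adjusted p-values of 2.3e-07, 3.8e-07 and 0.000343. SLC30A8, the insulin granule transporter, had 1 count in all.

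**Figure D5:**
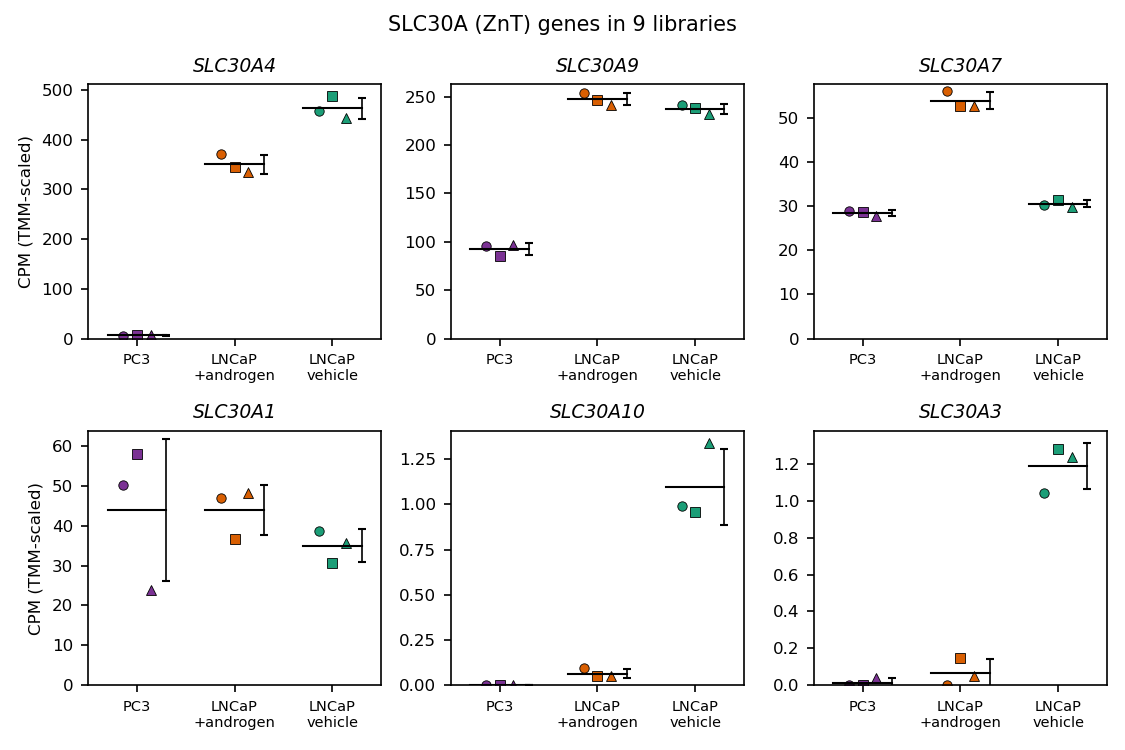
CPM of 6 SLC30A genes in each library (circle, square and triangle for replicates 1, 2 and 3), with the group mean as a line and the SD as a bar (n = 3). SLC30A4 and SLC30A9 are low in PC3, SLC30A1 has 1 PC3 library at 23.9 CPM against 50.2 and 58, and SLC30A10 and SLC30A3 are seen almost only with vehicle, at 0.96 to 1.34 CPM; each panel has its own vertical scale from 0.

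Across the system, 22 of the 37 members were tested in at least 1 comparison and 20 in all 3. Of the 15 never tested, 5 had 0 counts throughout, 5 had at most 3 counts in every library and 5 (MT1M, MT3, SLC30A2, SLC30A3 and SLC30A10) had more than 3 in some library. A member that passed the filter through 1 group only was favoured by the filter to be higher in that group. MT1G did so through vehicle against PC3, and MT1F through PC3 against androgen. The counts of calls thus describe the tested members alone.

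Related genes were read from 4 lists, whose counts stand beside the shares of all genes called: 6.54% higher and 7.49% lower with androgen, 24% and 22.1% in PC3 against androgen, and 22.2% and 21% against vehicle. Of 10 other zinc handling and sensing genes, 6 were tested with androgen, and 1 was called higher, CBWD1 (ZNG1A, a zinc metallochaperone), at 2.31 on the log2 scale (SE 0.052). CBWD1 shares 63% of its 74-base stretches with other places in the genome, among them its near copies, so this value is uncertain. GPR39, a zinc-sensing receptor, had 616, 582 and 631 counts in PC3 and at most 7 in any LNCaP library, and was called higher in PC3 in both comparisons, where only PC3 libraries carried it past the filter. SLC11A2, an importer of divalent metals, was lower in PC3 (log2 fold changes -1.76 and -1.17 against androgen and vehicle), and so was CBWD5, another near copy (-1.45 and -1.82). CBWD1 was lower in PC3 than with androgen (-3.33).

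Of 12 copper handling genes, all tested with androgen, 2 were called higher. STEAP4, a metalloreductase, went from 0.105 to 0.447 CPM with vehicle to 139 to 178 with androgen, passing the filter through the androgen libraries alone, and SLC31A2, a copper transporter, rose by 1.20 (SE 0.122). In PC3, 1 was higher and 6 lower than with androgen, and 1 was higher and 2 lower than with vehicle (24% and 22.1%, and 22.2% and 21%, of all genes). Without PC3 replicate 3, 5 were lower than with androgen. STEAP3 was the one higher in both, and ATP7A, the copper-exporting ATPase, and STEAP2 were lower in both. The list's median log2 fold changes were 0.28 with androgen, -1.01 in PC3 against androgen and -0.56 against vehicle.

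Of 11 heat shock and metal stress genes, which include other targets of metal exposure, 10 were tested with androgen and 1 was called higher, HMOX1 (heme oxygenase, log2 fold change 1.12, SE 0.146). The median was 0.30. In PC3, 2 were higher and 3 lower than with androgen (median 0.38), and 3 were higher and 2 lower than with vehicle (median 0.41). GCLC, of glutathione synthesis, was higher in both (1.29 and 1.97) and HSPA8 lower in both (-1.99 and -1.80). HSPA8 had 24011 counts in PC3 replicate 3 against 12733 and 12565, and without that library its log2 fold changes were -2.21 and -2.05. The counts of the list were then 1 higher and 3 lower against androgen, and 2 and 2 against vehicle. HSPA1A was among those called higher in both PC3 comparisons, and it passed the filter through the PC3 libraries alone. It had 278 to 658 counts in PC3 and at most 7 in any LNCaP library. Without PC3 replicate 3 it was not tested against androgen. HSPA1A and HSPA1B moved in opposite directions, and because they are near-identical copies their split is uncertain. Of the 6 genes of the citrate list none was called with androgen, while 4 passed by adjusted p-value alone (median 0.18). The same 3 were lower in PC3 than in both LNCaP groups: SLC25A1, the mitochondrial citrate carrier (-1.81 and -1.35), IDH2 (-2.39 and -2.63) and ACLY, which cleaves citrate (-1.88 and -1.13).

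VIM, a PC3 marker, had 272, 143 and 106 counts with androgen and 75, 23 and 32 with vehicle, against 26319 to 32841 in PC3, and was called higher with androgen. CD44 had 6 to 50 counts, CAV1 0 to 82 and AXL 1 to 50 in LNCaP libraries, all 3 too low to be tested between the LNCaP groups, with the highest count of each in androgen replicate 1, and EPHA2 did not pass the test (adjusted p = 0.571). MT2A, itself higher in PC3, was lower in the androgen group. MT1M, read 54 to 97 times in PC3, had 1 count in replicate 1 of each LNCaP group and 0 in replicates 2 and 3. VIM, CD44, CAV1 and AXL were also highest in replicate 1 of each LNCaP group. MT1M was too low even in PC3 for its counts to bear on that pattern. The part of these markers in the zinc gene results was not tested.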

How the data were processed

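The authors sequenced poly(A) mRNA as 74-nt single-end reads with molecular identifiers. According to their processing notes, adapters were trimmed with cutadapt 4.1, reads were aligned with STAR 2.7.7a to GRCh38 and duplicates were removed with UMI-tools 1.1.2. The study's methods give other versions of cutadapt and STAR, and the gene annotation is not given in the sources used here. The authors deposited counts, whole numbers of reads per gene and library without normalization. Each of the 253944 values was the STAR count on the gene's strand, and counts on the opposite strand came to 3.06% or less. Between 20.3% and 25.4% of reads were assigned to no single gene (unmapped, at several places, outside genes or ambiguous) and entered no library size.

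Genes with more than 3 CPM in at least 3 of the 6 libraries of a comparison were tested with edgeR 4.0.16 (R 4.3.3; TMM factors, quasi-likelihood F test, two-sided), adjusting by Benjamini-Hochberg over all genes tested (11697, 12541 and 12686 genes). Standard errors are the absolute log2 fold change over the root of F. Printed CPM were scaled by TMM factors from the 9 libraries together, whereas the filter used CPM without these factors. The study's batch term was left out, since its batches are not named. DESeq2 1.42.0 served as an alternative. In simulated counts of a single dispersion, with changes of more than 2-fold and no outlying library, the test recovered most of the changed genes. This does not bear on members near the 2-fold line. Ratios of pooled counts carry exact 95% intervals. Positions, exon lengths and 74-base uniqueness come from GENCODE on GRCh38, and promoters from RefSeq (GRCh38.p14) for 27 members. MT1A, MT1E, MT1F, MT1G, MT1L, MT1M, MT3, SLC30A8, SLC39A4 and SLC39A14 had no entry used here.

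Every member is accounted for, and those past the filter in any comparison are named with values. Some genes of the lists are not reported here by name, though the counts over their lists include them. Members and lists were chosen with earlier results of these data known. Replicate numbers were checked for pairing. Over 10910 genes, each library's deviations from its group mean correlated at 0.169, 0.234 and 0.213 between LNCaP libraries of the same number, all above 0.1, and at -0.252 to 0.085 between different numbers, so the numbers were taken to pair the LNCaP libraries. This rests on the counts and not on a label. Deviations within a group sum to 0, so these correlations are not independent of each other. The main fits held no replicate term, so the printed standard errors and adjusted p-values leave this pairing out.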

Additional observations from a re-analysis of the deposited data

How the results depend on the processing

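Between androgen and vehicle, each member tested in the main analysis kept its direction and its call (adjusted p-value and 2-fold together) under DESeq2 size factors, DESeq2's Wald test, edgeR's likelihood ratio test, unstranded counts, a joint fit of all 9 libraries, other filters and leaving out any library. The adjusted p-value alone held less well: SLC30A1 (0.343) and SLC39A13 (0.199) no longer passed in the joint fit, and with 1 library left out SLC30A1 (up to 0.0801), SLC39A13 (up to 0.118) and SLC39A9 (up to 0.0545) did not pass. Filters changed the counts: members called lower with androgen went from 3 to 6 without a filter and to 5 at more than 1 CPM, and members lower in PC3 than with vehicle from 5 to 8 without a filter. Without any 1 vehicle library this count was 4, since MT1G no longer passed the filter. With the replicate block, which the counts support for LNCaP only, 2 members were called higher and 3 lower with androgen, and the block changed no other call either. Same-numbered PC3 and LNCaP libraries correlated between -0.201 and 0.077, so they share only a number. PC3 against androgen changed most when a library was left out. Members called lower were 4 without any 1 PC3 library. They were 7 without androgen replicate 1, and 8 without androgen replicate 2 or 3, adding SLC30A7, SLC39A11 and SLC39A3. Members called higher were 3 in each case. The genes tested fell from 12541 to between 11313 and 11318 without a PC3 library, and to 11696 or 11697 without an androgen library. The filter still asked for 3 libraries and the TMM factors were fitted anew, so these counts do not show the part of a single library. SLC39A8 turned from -0.01 to 0.0039 without a filter and ranged from -0.15 to 0.26 with 1 library left out, SLC30A1 ranged from -0.22 to 0.39 and MT1X from -0.12 to 0.30. The cause was not tested. With 1 library left out, calls within 0.1 of the 2-fold line went either way (MTF1, SLC39A14, SLC39A3, SLC39A11 and SLC30A7), as did SLC39A9 against vehicle (1.00 without PC3 replicate 1). Depth limits the 15 members that were never tested.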
